A study of Mus musculus with 8 samples.

Results

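The 8 genes described here encode enzymes of cholesterol synthesis: Hmgcs1, Idi1, Fdps, Fdft1, Sqle, Lss, Cyp51 and Sc5d. They were taken by symbol from the annotation of the array, which named all 8 of them, out of 20842 named genes in all. Hmgcs1 to Sc5d were measured in lungs of newborn mouse pups of the C57Bl/6J strain. The pups were kept in a chamber at 20% oxygen, which is normal air, from postnatal day 0 to day 3. One group of 4 lung samples came from pups of wild-type genotype, and the other group of 4 came from pups labelled Fgf10 +/-. In pups with this label an allele of Fgf10, the gene of fibroblast growth factor 10, is disrupted. All 8 lung samples share the strain, the age and the oxygen level, so genotype is the labelled difference. The comparison asks how the lung of an Fgf10 +/- pup differs from a wild-type lung in normoxia.

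Cholesterol is built from acetyl units. In the mevalonate steps, HMG-CoA synthase (Hmgcs1) and later enzymes make isoprene units, which Idi1 interconverts and Fdps joins into farnesyl diphosphate. Fdft1 couples this intermediate into squalene, Sqle and Lss turn squalene into the sterol lanosterol, and Cyp51, Sc5d and their partners trim lanosterol to cholesterol. The genes are known targets of the transcription factor SREBP2 (Srebf2), which is released when sterol in the endoplasmic reticulum runs low. In the lung, cholesterol is the main neutral lipid of surfactant, and alveolar type 2 (AT2) cells secrete it together with phospholipid.

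SREBP2 binds sterol regulatory elements (SRE) and works with the factor NF-Y, which binds the CCAAT box, so promoter windows are shown for 4 of the genes. They are Hmgcs1, which lies near Fgf10 on its chromosome, Idi1 and Sc5d, which had the highest differences of the 8, and Cyp51, which holds a looser SRE match. Each window runs from 250 bases before to 50 bases after the annotated start, in RefSeq sequence of build GRCm38.p6, 5′ to 3′ on the strand of the gene. Capitals mark matches to TCACCCCAC (SRE core), ATCACNNCA (a looser SRE) or CCAAT, on either strand.
Hmgcs1, chr13:119690101-119690400, plus strand: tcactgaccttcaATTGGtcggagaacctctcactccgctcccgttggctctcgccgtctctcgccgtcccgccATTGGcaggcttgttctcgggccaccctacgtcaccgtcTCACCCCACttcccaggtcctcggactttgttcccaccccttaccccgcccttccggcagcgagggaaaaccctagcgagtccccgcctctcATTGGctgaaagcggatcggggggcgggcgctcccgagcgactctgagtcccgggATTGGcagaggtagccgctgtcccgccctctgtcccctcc
Idi1, chr13:8885356-8885655, plus strand: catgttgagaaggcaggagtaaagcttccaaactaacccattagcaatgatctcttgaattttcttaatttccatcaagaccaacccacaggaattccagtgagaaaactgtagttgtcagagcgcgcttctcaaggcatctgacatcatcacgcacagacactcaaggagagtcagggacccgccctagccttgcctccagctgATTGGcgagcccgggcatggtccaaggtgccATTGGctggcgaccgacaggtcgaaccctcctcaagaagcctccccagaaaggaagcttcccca
Cyp51, chr5:4104648-4104947, minus strand: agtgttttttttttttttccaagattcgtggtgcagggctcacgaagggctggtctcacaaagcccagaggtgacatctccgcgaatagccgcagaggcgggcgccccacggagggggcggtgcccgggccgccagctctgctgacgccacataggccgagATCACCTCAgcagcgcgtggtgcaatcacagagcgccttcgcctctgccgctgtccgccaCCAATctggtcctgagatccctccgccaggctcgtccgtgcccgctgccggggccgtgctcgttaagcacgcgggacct
Sc5d, chr9:42264251-42264550, minus strand: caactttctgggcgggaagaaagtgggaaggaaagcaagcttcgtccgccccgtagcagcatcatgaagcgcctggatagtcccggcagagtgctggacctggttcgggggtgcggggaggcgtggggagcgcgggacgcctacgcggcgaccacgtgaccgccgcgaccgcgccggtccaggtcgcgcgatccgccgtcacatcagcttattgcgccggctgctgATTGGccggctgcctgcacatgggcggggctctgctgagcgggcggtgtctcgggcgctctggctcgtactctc

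RefSeq windows were matched for 5 of the 8 genes, those 4 and Lss. Windows for Fdps, Fdft1 and Sqle were not used here. The CCAAT box was found in 5 of 5 windows, against 37.4% of all 32851 promoter windows of this length, and the Hmgcs1 window held 4 matches. The GC box GGGCGG, also searched on both strands, was found in 5 of 5 windows, against 35.7% of all windows. TCACCCCAC was found only in the Hmgcs1 window of the 5, at base -137 from the start, and in 0.551% of all windows. ATCACNNCA was found only in the Cyp51 window of the 5, at base -89, and in 2.77% of all windows. The E-box CACGTG was found only in the Sc5d window of the 5, at base -98, and in 7.15% of all windows. Matches of different motifs overlapped at 0 places in these windows. A match describes letters in the window and does not show binding.

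The arrays were 1-colour (Cy3), and each value is a log2 signal, and all arrays shared 1 distribution, with a median of 3.47 over all 62976 features. Arrays correlated between 0.977 and 0.986 across genes, as much between as within the groups. The number of arrays, 4 in each group, limits the precision. The submitters describe the samples as independent; of litter and pooling nothing is stated. If they share a litter, the p-values measure only the spread between these samples. Fgf10 itself was not lower in the arrays labelled Fgf10 +/-, at 7.95 ± 0.32 (SD, n = 4) against 7.46 ± 0.40 (SD, n = 4) in wild type. These values are of the brightest of its 10 probes. The difference was 0.49, or 0.31 when its probes were averaged. Where the probes of Fgf10 lie relative to the disrupted part is not stated. They therefore check nothing about the genotype, and the labels alone give each direction below. The lung identity of the samples was seen in the AT2 marker list, whose mean log2 signal was between 11.14 and 11.94 on all arrays. Wild-type replicate 4 stood apart in markers of tissue next to the lung, with a mean log2 signal of 8.34 over 6 cartilage genes and 7.32 over 7 skeletal muscle genes, where no other wild-type array exceeded 3.65 and 4.66.

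All 8 synthesis genes had a higher mean in the Fgf10 +/- arrays, by log2 differences from 0.04 (Sqle) to 0.37 (Sc5d), with a median of 0.24, and none passed the test. Across all genes tested, 49.8% had a higher mean and the median difference was -0.0012. limma with Benjamini-Hochberg adjustment over 20842 genes called 0 of the 8 at an adjusted p of 0.05, and the background was 0.0% of all genes. At an unadjusted p under 0.05 it called 1 of the 8 as higher, Hmgcs1, where the background was 4.74% of all genes. The values of the groups did not overlap for 2 of the 8, Hmgcs1 and Sc5d, where 2.99% of all genes were higher without overlap and 7.39% were separated in either direction. Each array contributed to all 8 genes, so their shared direction does not count as 8 separate observations.

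**Figure D1:**
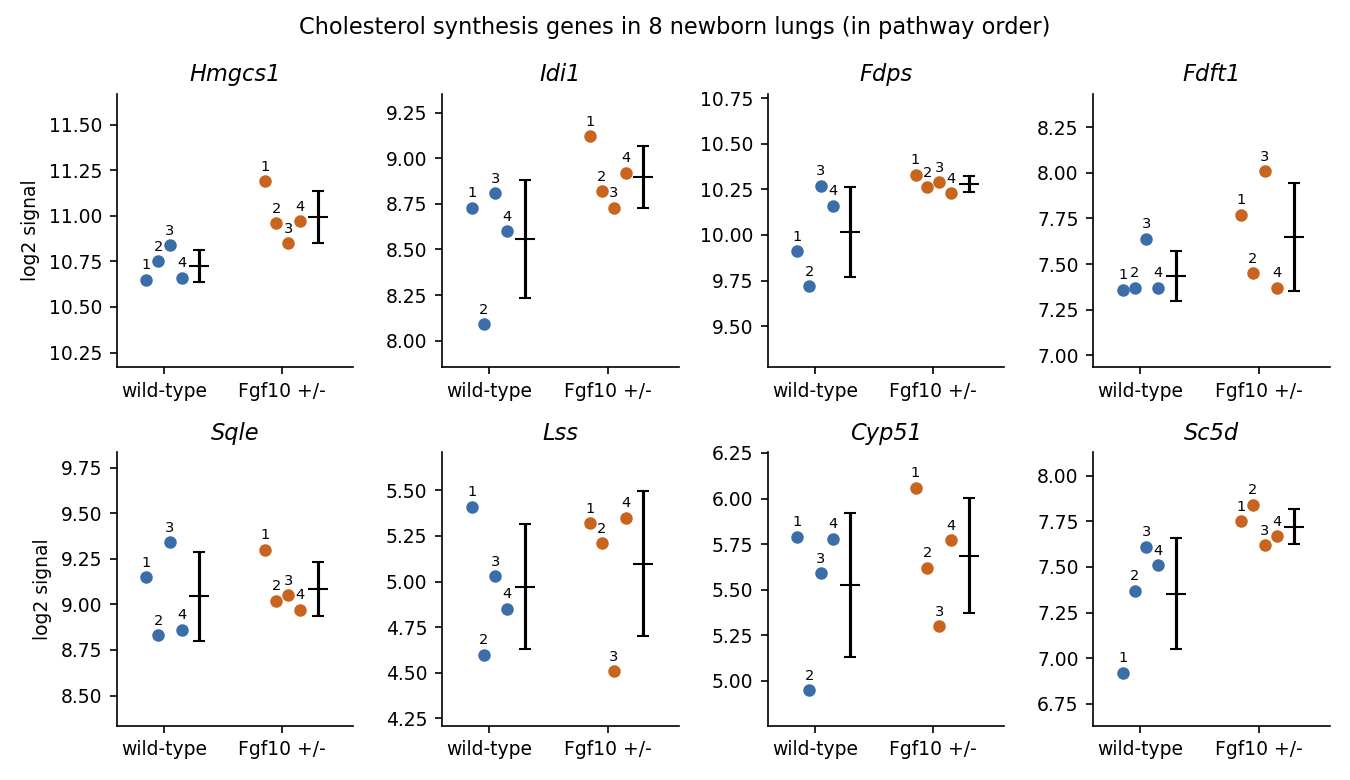
Log2 signal of the 8 synthesis genes on each array, in pathway order; points are arrays numbered by replicate, blue for wild-type and orange for Fgf10 +/-, and the bar beside each group is the mean ± SD (n = 4). Each panel spans the same range of log2 units, and only Hmgcs1 and Sc5d show groups without overlap, both by a narrow margin.

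In the mevalonate steps, Hmgcs1 makes HMG-CoA, the substrate of the rate-limiting reductase. Its log2 signals were 10.65, 10.75, 10.84 and 10.66 in wild-type replicates 1 to 4, and 11.19, 10.96, 10.85 and 10.97 in Fgf10 +/- replicates 1 to 4. All 4 Fgf10 +/- values lay above all 4 wild-type values, but the closest pair was only 0.006 apart. The mean difference was 0.26 (SE 0.11, 95% interval 0.01 to 0.52), a fold of 1.20, with an adjusted p of 0.441 in limma and a two-sided exact permutation p of 0.0286, the smallest that 70 assignments can give. After further quantile normalization the Hmgcs1 groups overlapped.

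Idi1 encodes the isomerase that interconverts the small isoprene units. Its signals were 8.73, 8.09, 8.81 and 8.60 in wild type and 9.12, 8.82, 8.73 and 8.92 in Fgf10 +/-. Wild-type replicate 2 was the low value, and only wild-type replicate 3 lay within the range of the Fgf10 +/- arrays. The difference was 0.34 (SE 0.18, 95% interval -0.07 to 0.75; limma adjusted p = 0.538), and it was 0.18 without wild-type replicate 2.

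Fdps encodes farnesyl diphosphate synthase, whose product feeds sterols, ubiquinone, dolichol and protein prenylation. Its signals were 9.91, 9.72, 10.27 and 10.16 in wild type and 10.33, 10.26, 10.29 and 10.23 in Fgf10 +/-. The Fgf10 +/- arrays lay close together (SD 0.04) at or above the upper end of a wider wild-type range (SD 0.25), and the groups overlapped through wild-type replicate 3. The difference was 0.26 (SE 0.14, 95% interval -0.05 to 0.58; limma adjusted p = 0.536), and it was 0.17 without wild-type replicate 2.

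Fdft1, squalene synthase, commits farnesyl diphosphate to sterols. Its signals were 7.36, 7.37, 7.64 and 7.37 in wild type and 7.77, 7.45, 8.01 and 7.37 in Fgf10 +/-. Replicates 1 and 3 of Fgf10 +/- were high, while replicates 2 and 4 lay within the wild-type range. The difference was 0.22 (SE 0.16; limma adjusted p = 0.690), and it was 0.10 without Fgf10 +/- replicate 3. A second Fdft1 probe had a mean of 2.48 in wild type, below the array median, and it differed by 0.33 (SE 0.52).

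Within the 8 genes, the enzymes that act first on squalene had the smallest mean differences. Sqle, the squalene epoxidase and a rate-limiting step of its own, read 9.15, 8.83, 9.34 and 8.86 in wild type and 9.30, 9.02, 9.05 and 8.97 in Fgf10 +/-. The wild-type arrays spanned all of the Fgf10 +/- values. Its difference was 0.04 (SE 0.15), the 95% interval ran from -0.30 to 0.38, and its sign was negative when wild-type replicate 2, wild-type replicate 4 or Fgf10 +/- replicate 1 was left out, and with array weights.

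Lss, which folds the epoxide into lanosterol, read 5.41, 4.60, 5.03 and 4.85 in wild type and 5.32, 5.21, 4.51 and 5.35 in Fgf10 +/-. The highest value was wild-type replicate 1 and the lowest Fgf10 +/- replicate 3, so the groups overlapped over nearly the whole range. Its difference was 0.13 (SE 0.24, 95% interval -0.42 to 0.68; limma adjusted p = 0.892). It was 0.32 without Fgf10 +/- replicate 3 and 0.00 without wild-type replicate 2.

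Cyp51, the lanosterol demethylase, read 5.79, 4.95, 5.59 and 5.78 in wild type and 6.06, 5.62, 5.30 and 5.77 in Fgf10 +/-. Apart from the low wild-type replicate 2 and the high Fgf10 +/- replicate 1, the arrays of both groups lay between 5.30 and 5.79. Its difference was 0.16 (SE 0.23, 95% interval -0.38 to 0.70; limma adjusted p = 0.855), and it was -0.03 without wild-type replicate 2.

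Sc5d encodes the sterol desaturase that acts just before the last step to cholesterol. Its signals were 6.92, 7.37, 7.61 and 7.51 in wild type and 7.75, 7.84, 7.62 and 7.67 in Fgf10 +/-. The groups did not overlap, but wild-type replicate 3 and Fgf10 +/- replicate 3 were only 0.011 apart, and wild-type replicate 1 lay well below the rest. The difference of 0.37 (SE 0.16, 95% interval -0.01 to 0.74), a fold of 1.29, had an adjusted p of 0.462 in limma and an exact permutation p of 0.0286. Any gene whose groups do not overlap has this permutation p, so it adds nothing to the separation. For the synthesis genes with overlap the permutation p ran from 0.0571 (Idi1) to 0.743 (Sqle). The Sc5d difference was 0.22 without wild-type replicate 1.

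**Figure D2:**
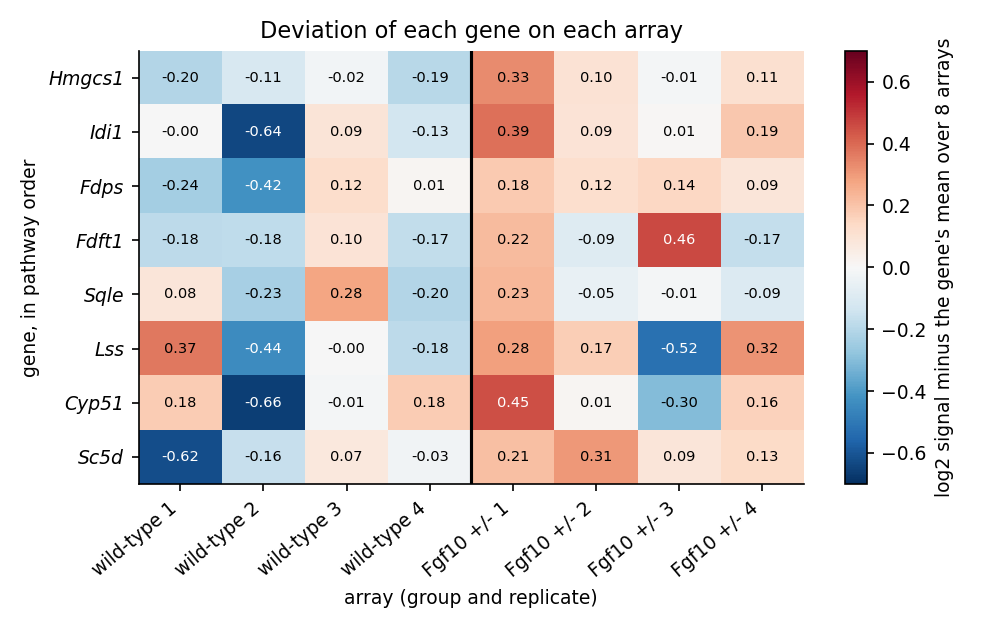
Deviation of each synthesis gene from its own mean over the 8 arrays, in log2 units, with genes in pathway order as rows and arrays as columns (a line divides wild-type from Fgf10 +/-). Wild-type replicate 2 is below the mean for all 8 genes and Fgf10 +/- replicate 1 is above it for all 8.

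Some single arrays deviated in the same direction for all 8 genes. Wild-type replicate 2 was below the mean of the gene for all 8 genes and was the lowest of all arrays for 4 of them, Idi1, Fdps, Sqle and Cyp51, with a median deviation of -0.33. Fgf10 +/- replicate 1 was above the mean for all 8 and the highest array for 4, Hmgcs1, Idi1, Fdps and Cyp51, with a median deviation of 0.26. In the other arrays the median deviation lay between -0.15 and 0.12. Wild-type replicate 3, at 0.08, was above the 0.00 of Fgf10 +/- replicate 3. Without wild-type replicate 2 the median difference of the 8 genes was 0.18 and 6 of the 8 had a higher mean, and without Fgf10 +/- replicate 1 these values were 0.19 and 7. Without wild-type replicate 3, the highest array of its group for all of the genes but Lss and Cyp51, 5 of the 8 were higher without overlap, adding Idi1, Fdps and Fdft1, where 4.67% of all genes were with these 7 arrays. Without wild-type replicate 4 and Fgf10 +/- replicate 3 together the median difference was 0.30, with 7 of the 8 higher.

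The other enzymes of the route were taken from a list. Of 5 other mevalonate genes 3 were measured, Mvk, Pmvk and Mvd, which phosphorylate and decarboxylate mevalonate. All 3 had a higher mean, with differences of 0.09 (SE 0.12), 0.05 (SE 0.12) and 0.13 (SE 0.24), and none passed in limma. Pmvk, named after its values were seen, was at -0.01 without wild-type replicate 2, and Mvd at -0.02 without wild-type replicate 4. Of 8 other sterol genes 7 were measured, 5 with a higher and 2 with a lower mean, with a median of 0.11, and 0 passed an unadjusted p of 0.05. Together with the 8 genes, 16 of 18 measured synthesis steps had a higher mean, with a median difference of 0.13.

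Dhcr7, the reductase of the final step, had the highest difference among these others. It read 5.32, 5.12, 5.32 and 5.12 in wild type and 5.59, 5.89, 5.26 and 5.40 in Fgf10 +/-, a difference of 0.32 (SE 0.15; limma adjusted p = 0.502), or 0.20 without Fgf10 +/- replicate 2. Only Fgf10 +/- replicate 3 reached into the wild-type range. Nsdhl, a dehydrogenase of the demethylation complex, went the other way, with a difference of -0.25 (SE 0.12; limma adjusted p = 0.511), or -0.40 when its probes were averaged. Msmo1, the methyl oxidase that acts after Cyp51, was named after its values were seen; it differed by 0.09 (SE 0.18), and by -0.03 without wild-type replicate 2. Lbr, a nuclear membrane protein with sterol reductase activity, was likewise named after its values were seen and differed by 0.21 (SE 0.11; limma adjusted p = 0.515), or by 0.39 when its probes were averaged.

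**Figure D3:**
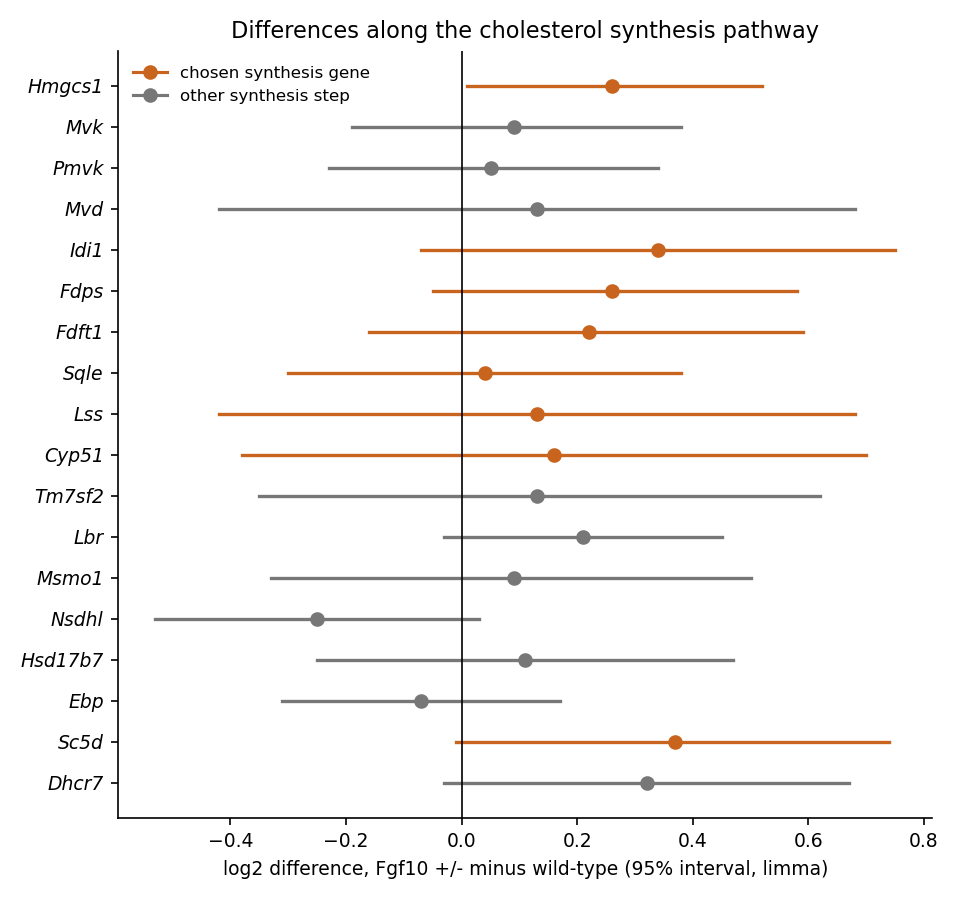
Log2 difference of Fgf10 +/- minus wild-type for the 18 measured steps of cholesterol synthesis, from Hmgcs1 at the top to the last steps at the bottom; points are limma estimates and lines their 95% intervals, orange for the 8 chosen genes and grey for the others. Of the 18 points 16 lie above 0, and the interval of Hmgcs1 alone lies wholly above 0.

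Of 9 genes that carry isoprene units into ubiquinone, dolichol or protein prenylation, 5 had a higher and 4 a lower mean, with a median of 0.02. The 2 with the smallest p were Pggt1b, a subunit of a protein prenyltransferase, at 0.35 (SE 0.22) and Nus1, a subunit of the dolichol-forming transferase, at 0.17 (SE 0.12). Neither passed in limma (adjusted p of 0.615 and 0.653). Pggt1b was at 0.23 without wild-type replicate 3 or Fgf10 +/- replicate 4, and Nus1 was at -0.15 when its probes were averaged.

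Of 11 genes that control SREBP processing 9 were measured, 1 with a higher and 8 with a lower mean, with a median of -0.14, and 0 passed an unadjusted p of 0.05. The 1 higher gene was Srebf2 itself, named after its values were seen, at 0.06 (SE 0.19), a value that changed sign when its probes were averaged (-0.19). Insig2 and Insig1 encode the proteins that hold SREBP in the endoplasmic reticulum when sterol is plentiful, and Insig1 is itself an SREBP target. Insig2 read 9.34, 9.16, 9.11 and 8.89 in wild type and 8.76, 8.83, 8.89 and 8.96 in Fgf10 +/-, a difference of -0.26 (SE 0.12; limma adjusted p = 0.484), or -0.16 when its probes were averaged. Insig1 read 5.21, 4.63, 4.88 and 4.52 in wild type and 4.61, 3.97, 5.09 and 3.68 in Fgf10 +/-, a difference of -0.47 (SE 0.32; limma adjusted p = 0.643). For Insig2 the overlap came from the low wild-type replicate 4, and for Insig1 mainly from Fgf10 +/- replicate 3, which lay above 3 of the 4 wild-type arrays. The Insig1 difference was -0.25 without Fgf10 +/- replicate 4 and -0.72 without Fgf10 +/- replicate 3.

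In uptake and endosomal release, 10 of 13 listed genes were measured, 5 with a higher and 5 with a lower mean. At an unadjusted p under 0.05, 1 was higher and 2 were lower, where the background was 4.74% higher and 6.29% lower. Npc2 is the lysosomal protein that hands free cholesterol to the membrane protein Npc1. Npc2 read 13.01, 12.89, 12.86 and 12.81 in wild type and 12.58, 12.49, 12.51 and 12.21 in Fgf10 +/-. All 4 Fgf10 +/- values lay below all 4 wild-type values, and the difference was -0.44 (SE 0.12, 95% interval -0.71 to -0.18), a ratio of 0.73, with a limma adjusted p of 0.231. Npc2 passed, at an adjusted p of 0.00266, when limma was given a variance trend and robust settings.

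Npc1, named after its values were seen, differed by -0.29 (SE 0.12; limma adjusted p = 0.420), with wild-type replicate 4 and Fgf10 +/- replicate 4 overlapping. Stard3, a late endosomal sterol carrier, was lower without overlap, by -0.22 (SE 0.10; limma adjusted p = 0.484). Lipa, the acid lipase that frees cholesterol from its esters, had the opposite sign and was named after its values were seen. It read 8.48, 8.66, 8.47 and 9.02 in wild type and 9.01, 9.19, 9.09 and 9.57 in Fgf10 +/-, a difference of 0.56 (SE 0.18; limma adjusted p = 0.293, or 0.0467 with a variance trend and robust settings). Wild-type replicate 4 was the only wild-type value within the range of the Fgf10 +/- arrays.

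Genes of cholesterol storage and efflux had a median of -0.16 over 11 genes, 4 with a higher and 7 with a lower mean. Nr1h3, the liver X receptor that responds to oxysterols, was the 1 gene of the 11 without overlap, where the background was 7.39% of all genes in either direction. It read 9.49, 9.44, 9.36 and 9.52 in wild type and 9.61, 9.70, 9.97 and 9.56 in Fgf10 +/-, a difference of 0.26 (SE 0.12; limma adjusted p = 0.485), or 0.17 without Fgf10 +/- replicate 3. The SREBP1 targets of fatty acid synthesis, set beside the sterol genes for comparison, had 4 higher and 8 lower means of 12, with a median of -0.07. Of the 12, 1 was higher and 2 were lower without overlap, against 2.99% and 4.4% of all genes. Acaca, which makes malonyl-CoA, was lower without overlap, by -0.30 (SE 0.11; limma adjusted p = 0.354). Acly, which makes cytosolic acetyl-CoA for both routes, was lower without overlap by -0.17 (SE 0.09), but showed no difference when a dim probe of the gene was averaged in. Elovl6, a fatty acid elongase, was higher without overlap, by 0.38 (SE 0.12; limma adjusted p = 0.314). No difference between these lists and the 8 synthesis genes was tested.

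**Figure D4:**
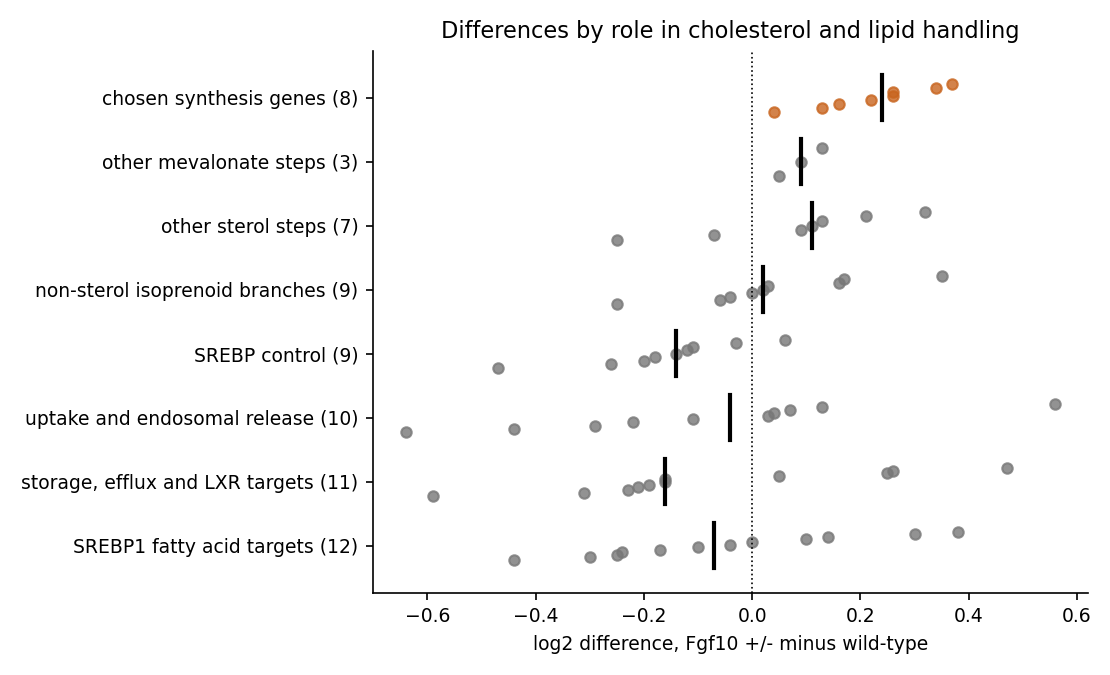
Log2 difference of Fgf10 +/- minus wild-type for each measured gene, grouped by role, with the number of measured genes in parentheses; points are genes and black bars are medians. The 8 chosen synthesis genes have a median of 0.24, the genes of SREBP control a median of -0.14 and the storage and efflux genes a median of -0.16.

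Apart from its role, Hmgcs1 is marked by its place: it lies on chromosome 13 close to Fgf10, the gene that was targeted. In the RefSeq gene order of build GRCm38.p6, 5 coding genes lie between them, and all 5 were measured. Nnt, the mitochondrial transhydrogenase, and Paip1, a partner of poly(A)-binding protein, were higher without overlap, while 4833420G17Rik was lower without overlap, against 2.99% and 4.4% of all genes. Nnt read 9.62, 9.53, 9.55 and 9.54 in wild type and 10.21, 10.26, 10.17 and 10.30 in Fgf10 +/-, a difference of 0.68 (SE 0.09; limma adjusted p = 0.0767), or 0.38 when its probes were averaged. Paip1 differed by 0.74 (SE 0.20; limma adjusted p = 0.235), or by 0.15 when its probes were averaged. 4833420G17Rik differed by -0.78 (SE 0.11; limma adjusted p = 0.0767).

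The genes nearest to Hmgcs1 gave less clear values. Tmem267 differed by -0.16 (SE 0.43), and Ccl28, whose signal was dim at 2.54 in wild type, by 0.04 (SE 0.33). Beyond Hmgcs1, the equally dim Nim1k (wild-type mean 1.87) was higher without overlap by 0.65 (SE 0.32), and by 0.30 without Fgf10 +/- replicate 4. Zfp131 differed by 0.05 (SE 0.11). These genes were named for their place and after values of some of them were known. Idi1 lies on the same chromosome but far from this stretch. Whether the place of Hmgcs1 bears on its difference was not tested.

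**Figure D5:**
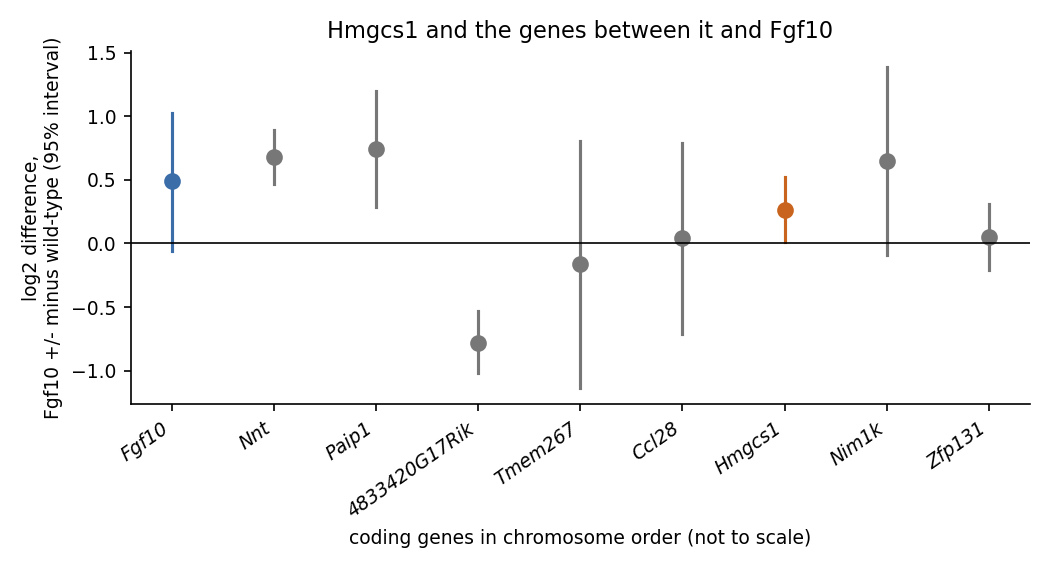
Log2 difference of Fgf10 +/- minus wild-type for Fgf10 (blue), Hmgcs1 (orange), the 5 coding genes between them and the next 2 (grey), in chromosome order but not to scale; points are limma estimates and lines 95% intervals. Nnt and Paip1 lie above 0 and 4833420G17Rik below it, and Hmgcs1 lies above 0 by less than Nnt and Paip1.

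Among the brighter genes, those that followed the mean of the 8 synthesis genes most closely across the 8 arrays were no sterol enzymes. Dimmer genes, Dhcr7 and Nsdhl among them, were not ranked. Among 10415 other genes in the upper part of the signal range, the 6 with the highest Pearson correlation were Surf4 (0.986), a cargo receptor of the endoplasmic reticulum, Rbpms2 (0.985), Ola1 (0.981), Taf6 (0.965), Ptma (0.956) and Pole (0.955), the catalytic subunit of DNA polymerase epsilon. Their differences ran from 0.12 (Ptma) to 0.44 (Pole), and the groups overlapped for all 6. Of the listed pathway genes, Msmo1, at 0.767, held rank 242, Vldlr, a lipoprotein receptor named after its values were seen, at 0.722, rank 359, and Mvk, at 0.630, rank 679. These ranks include the difference between the genotypes. With each group set to its own mean, the ranks were 82 for Msmo1 (0.854), 320 for Vldlr (0.735) and 925 for Mvk (0.571). With 8 arrays and so many genes, high values can occur without any relation, and the points share the array, so these are descriptions.

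Whole lung was measured, so fewer cells of a type and less RNA per cell cannot be told apart. Markers of several cell types differed between the genotypes beside the synthesis genes, though none passed the adjusted test. Of 14 AT2 markers, 14 had a lower mean and 10 were lower without overlap, where the background was 4.4% of all genes. The mean log2 signal of the AT2 list was 11.72 to 11.94 in wild type and 11.14 to 11.40 in Fgf10 +/-. Of 8 ciliated cell markers 8 had a lower mean and 4 did not overlap, and the list read 8.38 to 8.85 in wild type and 7.82 to 8.34 in Fgf10 +/-. Of 7 club cell markers 7 had a lower mean and 4 did not overlap, with the list at 11.86 to 12.15 and 11.38 to 11.84, and of 8 markers of alveolar type 1 cells 7 had a lower mean and 4 did not overlap.

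Markers of dividing cells had the same sign as the synthesis genes. All 7 that were measured had a higher mean and 6 were higher without overlap, where the background was 2.99% of all genes. The list read 7.41 to 7.80 in wild type and 8.24 to 8.32 in Fgf10 +/-. Medians were smaller in other lists: lipofibroblasts had a median difference of 0.12 over 7 genes, macrophages 0.04 over 8, endothelium 0.01 over 7 and erythroid cells 0.11 over 5. Genes of steroid-making and liver cells, which carry much sterol synthesis, had a mean log2 signal of 2.60 to 3.24 over 7 genes, below the array median on every array; 5 of the 7 had a higher mean, with a median difference of 0.18. Heart-type muscle genes were lower in all 7 cases, with a median of -0.81. The medians of skeletal muscle (-1.12), fat (-0.94) and cartilage (-1.19) include wild-type replicate 4. Its mean log2 signal over these lists was 7.32, 6.82 and 8.34, where no other wild-type array exceeded 4.66, 5.15 and 3.65. These medians were not computed without it. The part of any of these cell types in the differences of the synthesis genes was not tested.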

How the data were processed

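Per the labels' protocols, RNA from 8 lung samples was isolated on Qiagen miRNeasy columns, amplified (Agilent QuickAmp, low input) and given the dye Cy3. The authors deposited log2 signals for 62976 features on 8 arrays; their range of 1.51 to 15.99 gave the scale. The sorted values differed by at most 0.0042 between arrays, so they had been quantile normalized. Per the submitters' processing notes the upstream tool was limma, with no version; background correction and spot flags are not stated, and differences near the floor may be compressed.

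Gene names came from the platform table, which gave 1 symbol to 31465 features, several to 0 and none to 31511. Symbols were updated by accession through a RefSeq table (GRCm38.p6), which held 29036 features and changed 2933 symbols; it served for names and gene order, since the array annotation names no build. After 120 features with a blank were left out, the feature with the highest mean stood for each of 20842 genes. Of the 8 synthesis genes 7 had 1 feature and Fdft1 had 2. No filter on low values was applied. Array pairs with identical values numbered 0.

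Groups came from the titles. limma 3.58.1 in R 4.3.3 was fitted over all genes with group only (two-sided, Benjamini-Hochberg, threshold 0.05), and standard errors are its moderated ones. Exact permutation tests ran over all 70 assignments. The fit was tested on simulated data. Genes were named by a rule: the 8 genes and Fgf10; from each other list up to 4 genes whose groups do not overlap, or else the 2 with the smallest p; and the 6 genes most like the mean of the 8. Genes named outside it are marked in the text. The 8 genes, the lists and the tests were chosen with earlier results of these data known. Alternatives were other summaries of features, normalizations, filters, variance models, array weights, a sex covariate from Xist and Y-linked genes, a replicate block, and left-out arrays. A planned pseudocount did not apply to log values. Figures were drawn with matplotlib 3.10.9.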

Additional observations from a re-analysis of the deposited data

Results flagged for a closer look

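Within a group of 4, 1 array stood far from the other 3 in 4 of 84 groups of named genes. Chance alone gives about 1 in 20, so the count of flags is close to the chance share. Fdft1 read 7.64 in wild-type replicate 3, where the other wild-type arrays lay between 7.36 and 7.37. Mvd read 5.39 in Fgf10 +/- replicate 3, against 6.11 to 6.23 in the other 3 arrays of that group. Stard3 read 9.98 in Fgf10 +/- replicate 1, against 10.16 to 10.19. Nim1k, next to Hmgcs1, read 3.56 in Fgf10 +/- replicate 4, against 2.06 to 2.27 near the floor of the array.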

How the results depend on the processing

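With 4 arrays per group and signals that may be compressed near the floor, differences of the size seen here were within the reach of single arrays. None of the 8 synthesis genes passed an adjusted p of 0.05 in limma under any of 20 alternatives, and the lowest adjusted p was 0.152, for Hmgcs1 with a variance trend and robust settings. The count over all genes was 0 as reported (2298 at an unadjusted p under 0.05), and it was 288 without genes below the 50th percentile of mean signal, 38 without those below the 25th, 3 with array weights, and 414 once limma used a variance trend with robust settings; leaving out each array in turn gave 0 to 1, the 1 without wild-type replicate 4. The number of synthesis genes higher without overlap was 2 as reported, against 2.99% of all genes. It was 1 with further quantile normalization (Sc5d), against 3.24%. Centred on the median it was 3 (Hmgcs1, Fdps and Sc5d), against 3.69%. It was 2 to 5 when each array was left out, the 5 without wild-type replicate 3 and 3 without Fgf10 +/- replicate 3. Over all genes the share higher without overlap was then 4.67% and 5.06%. Without wild-type replicate 4 and Fgf10 +/- replicate 3 together it was 3 synthesis genes, against 8.71% of all genes. With each array left out, the median difference of the synthesis genes ranged from 0.18 to 0.30 and the number with a higher mean from 6 to 8. Under all 20 alternatives the median stayed above 0.

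The replicate number as a block left the synthesis genes at 0 calls, a median of 0.24 and 8 higher means, and called 0 genes over the whole table. Arrays of the same replicate number were correlated in their deviations at 0.113, 0.023, 0.018 and 0.078 for replicates 1 to 4, so the numbers were not taken as pairs, and 2 of 4 wild-type arrays correlated best with their own number.

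Of 830 values of 42 named genes under the alternatives, 797 kept their sign and their side of the threshold, 8 came to pass it and 25 changed sign. Sqle was at -0.01 with array weights and at -0.01 without wild-type replicate 4 and Fgf10 +/- replicate 3 together. Under that last setting Srebf2 was at -0.05, Pmvk at -0.02 and Ccl28 at -0.37. With the features of a gene averaged, Nus1 was at -0.15, Srebf2 at -0.19 and Tmem267 at 0.02; Tmem267 was also at 0.02 with a sex covariate, and Ccl28 at -0.05 with array weights. Leaving out each array in turn, Sqle ranged from -0.03 to 0.14, Cyp51 from -0.03 to 0.29, Mvd from -0.02 to 0.32, Srebf2 from -0.03 to 0.21, Msmo1 from -0.03 to 0.22, Pmvk from -0.01 to 0.12, Tmem267 from -0.48 to 0.18, Ccl28 from -0.20 to 0.23 and Zfp131 from -0.01 to 0.11. The cause of these changes was not tested. The values that came to pass were those of Npc2, Lipa, Nnt and 4833420G17Rik, under a variance trend or, for the last 2, also without dim genes.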
